A study of Equus caballus with 18 samples.

Results

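Of the 25239 horse genes in the deposited count table, 5 were described across skeletal muscles, namely those that separate muscles of the hindlimb from muscles of the forelimb, shoulder girdle and neck. ENSECAG00000024900, ENSECAG00000024985 and ENSECAG00000000726 had higher levels in the hindlimb, and ENSECAG00000004242 and ENSECAG00000004259 had higher levels in the anterior muscles. The 5 genes were chosen by their measured levels, since they are the genes called between hindlimb and anterior muscles in these same libraries. This difference is therefore only described below, and the test that called the genes is given as a description of their choice. The count table gives Ensembl identifiers without gene names, and none of its identifiers matched the reference table of gene names used here, so the products of the 5 genes are not named and no function is given for them.

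RNA was sequenced from 18 skeletal muscles of 1 male Jeju horse, with 1 library per muscle and no treatment. The 7 hindlimb muscles were the semitendinosus, the gluteus superficialis and the vertebral, middle and caudal parts of the biceps femoris (proximal, at hip and thigh), and the extensor digitorum longus and extensor digitorum lateralis (distal, at the leg). The 10 anterior muscles were the long head of the triceps brachii, the biceps brachii, the infraspinatus and the supraspinatus (proximal forelimb), the extensor digitorum communis and extensor carpi radialis (distal forelimb), and the rhomboideus, omohyoideus, trapezius and pectoralis (girdle and neck). The longissimus of the back was the only trunk muscle and was kept apart. Muscles were placed by the anatomy of their names. With 1 animal, the muscles of a group stand in for replicates, so each spread and each p-value below covers differences between muscles and libraries of this horse and not differences between horses.

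Limb muscles arise from precursor cells that migrate out of the somites into the limb bud, where they meet connective tissue that carries the positional pattern of the limb. In vertebrates, transcription factors of the HOX, TBX and PITX families mark the position of the limbs and of their segments in the embryo, and adult muscle, satellite cells and muscle connective tissue can keep position-dependent expression of such genes. Muscles of different places therefore can differ in gene expression apart from their fiber types.

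Between 31395013 and 50508515 reads per library were counted on genes. Levels are given as CPM, the usual unit of counts relative to library size, after scaling by the trimmed mean of M-values (TMM), whose factors ranged from 0.814 to 1.43. A gene with 3 counts or fewer was taken to be at the floor, which was 0.0552 to 0.0948 CPM depending on the library, and the 95% intervals of single muscles are exact Poisson intervals that cover counting error only. The extensor digitorum lateralis stood apart, with a mean correlation of 0.940 with the other libraries across genes, against 0.949 to 0.966 for the other 17 libraries. Each tissue is bulk, so fewer cells that express a gene and less RNA per cell cannot be told apart, and the labelled tissues could not be checked against marker genes without gene names.

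ENSECAG00000024900 was detected in every hindlimb muscle and in none of the anterior muscles. Its counts were 54 in the semitendinosus, 57 in the gluteus superficialis, 52, 39 and 45 in the vertebral, middle and caudal parts of the biceps femoris, 58 in the extensor digitorum longus and 37 in the extensor digitorum lateralis. All 10 anterior muscles had 0 counts, which at the floor of 3 counts allows a level of up to 0.0668 to 0.0942 CPM in a library (the upper 95% Poisson limits are 0.0822 to 0.116 CPM). The lowest hindlimb level was thus far above the highest anterior level, and the groups did not overlap.

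The mean of ENSECAG00000024900 over the hindlimb was 1.24 ± 0.196 CPM (SD, n = 7), from 0.978 in the extensor digitorum lateralis through a median of 1.23 to 1.53 in the extensor digitorum longus. This is at least 15.3-fold higher than the floor of the anterior muscles (the mean of the per-library floors of 3 counts). On the TMM scale the gene was the most even of the 5 over its high group, with a coefficient of variation of 15.8%, and its variance between hindlimb libraries was 1.26 times that of counting alone. The 3 parts of the biceps femoris were at 1.23 ± 0.0121 CPM (SD, n = 3), and at 1.24 ± 0.166 CPM on deposited totals, so their closeness depends on the scaling. On deposited totals the gluteus superficialis was the highest hindlimb muscle, at 1.46 CPM.

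ENSECAG00000024985 had the same division between hindlimb and anterior muscles but varied more within the hindlimb. The semitendinosus had 51 counts, the gluteus superficialis 75, the vertebral, middle and caudal parts of the biceps femoris 59, 73 and 96, the extensor digitorum longus 61 and the extensor digitorum lateralis 33. Again all 10 anterior libraries had 0 counts. The hindlimb mean was 1.65 ± 0.610 CPM (SD, n = 7), with a lowest level of 0.872, a median of 1.38 and a highest of 2.63, and it was at least 20.4-fold higher than the anterior floor. The middle and caudal parts of the biceps femoris were the highest muscles, at 2.31 and 2.63 CPM, while the vertebral part of the same muscle was at 1.37 CPM.

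The pattern of these 2 genes was also counted over the table. It restates the contrast that chose the genes, so the count is a description. Of 25239 genes, 2 had 10 or more counts in every hindlimb muscle together with at most 3 in every anterior muscle, and both are ENSECAG00000024900 and ENSECAG00000024985. The reverse pattern, with 10 or more counts in every anterior muscle and at most 3 in every hindlimb muscle, was found for 0 genes. When each of 17 muscles was left out, the lower bounds of the fold were highest without the extensor digitorum lateralis, at 15.9 and 22.0. The lowest values were 14.7 for ENSECAG00000024900 (without the extensor digitorum longus) and 18.3 for ENSECAG00000024985 (without the caudal biceps femoris).

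ENSECAG00000000726 was low but not absent in the anterior muscles. In the hindlimb it had 46 counts in the semitendinosus, 128 in the gluteus superficialis, 50, 71 and 95 in the vertebral, middle and caudal biceps femoris, 50 in the extensor digitorum longus and 30 in the extensor digitorum lateralis. Among anterior muscles the supraspinatus had 30 counts, the trapezius 14 and the pectoralis 8, and the other 7 had 1 or 2 counts each. The supraspinatus, at 0.795 CPM, was level with the lowest hindlimb muscle, the extensor digitorum lateralis at 0.793 CPM, and was the only anterior muscle to reach the range of the hindlimb.

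The hindlimb mean of ENSECAG00000000726 was 1.67 ± 0.709 CPM (SD, n = 7) and the anterior mean 0.162 ± 0.252 CPM (SD, n = 10), a ratio of 10.3. Its anterior mean rests on few libraries, since the median was 0.0380 CPM and 7 of 10 libraries were at the floor. The supraspinatus held 30 of the 61 anterior counts, so the ratio of the means would be higher without it. The difference of mean log2 CPM was 3.50 at a prior count of 2. Over the muscles left out, it ran from 3.38 (without the caudal biceps femoris) to 3.79 (without the supraspinatus). At these low counts the difference depends on the prior count and was 4.13 at a prior count of 0.5.

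ENSECAG00000004242 was present in all muscles, with the higher levels in the anterior group. The anterior levels were 3.34 CPM in the triceps brachii, 5.07 in the biceps brachii, 6.59 in the infraspinatus, 6.30 in the supraspinatus, 7.19 in the rhomboideus, 5.86 in the omohyoideus, 3.90 in the trapezius, 5.75 in the pectoralis, 4.22 in the extensor digitorum communis and 10.2 in the extensor carpi radialis. In the hindlimb it was 1.60 CPM in the semitendinosus, 1.51 in the gluteus superficialis, 2.0, 2.21 and 2.74 in the vertebral, middle and caudal biceps femoris, 3.75 in the extensor digitorum longus and 1.11 in the extensor digitorum lateralis. One pair of muscles crossed, because the extensor digitorum longus was above the long head of the triceps brachii.

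The anterior mean of ENSECAG00000004242 was 5.85 ± 1.98 CPM (SD, n = 10) and the hindlimb mean 2.13 ± 0.887 CPM (SD, n = 7), a ratio of 2.74. Hindlimb minus anterior, the difference of mean log2 CPM was -1.46, and it was -1.33 without the extensor digitorum lateralis. The counts behind these levels were 108 to 344 in the anterior muscles and 42 to 142 in the hindlimb.

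ENSECAG00000004259 also was present in all muscles and higher in the anterior ones. Its anterior counts ran from 63 in the infraspinatus to 136 in the rhomboideus with a median of 94.5, and its hindlimb counts from 30 in the vertebral biceps femoris to 60 in the caudal biceps femoris with a median of 45. The anterior levels ran from 1.98 CPM in the infraspinatus through a median of 2.46 to 3.76 in the rhomboideus, with the trapezius next at 3.75. The hindlimb levels ran from 0.699 CPM in the vertebral biceps femoris through a median of 1.0 to 1.64 in the caudal biceps femoris.

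On the TMM scale the groups of ENSECAG00000004259 did not overlap, with a gap of 0.334 CPM between them. On the scale of deposited totals, without TMM, they did, since the caudal biceps femoris at 1.64 CPM was above the infraspinatus at 1.61 CPM. The anterior mean was 2.65 ± 0.656 CPM (SD, n = 10) and the hindlimb mean 1.13 ± 0.334 CPM (SD, n = 7), a ratio of 2.35. The difference of mean log2 CPM, hindlimb minus anterior, was -1.21.

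**Figure D1:**
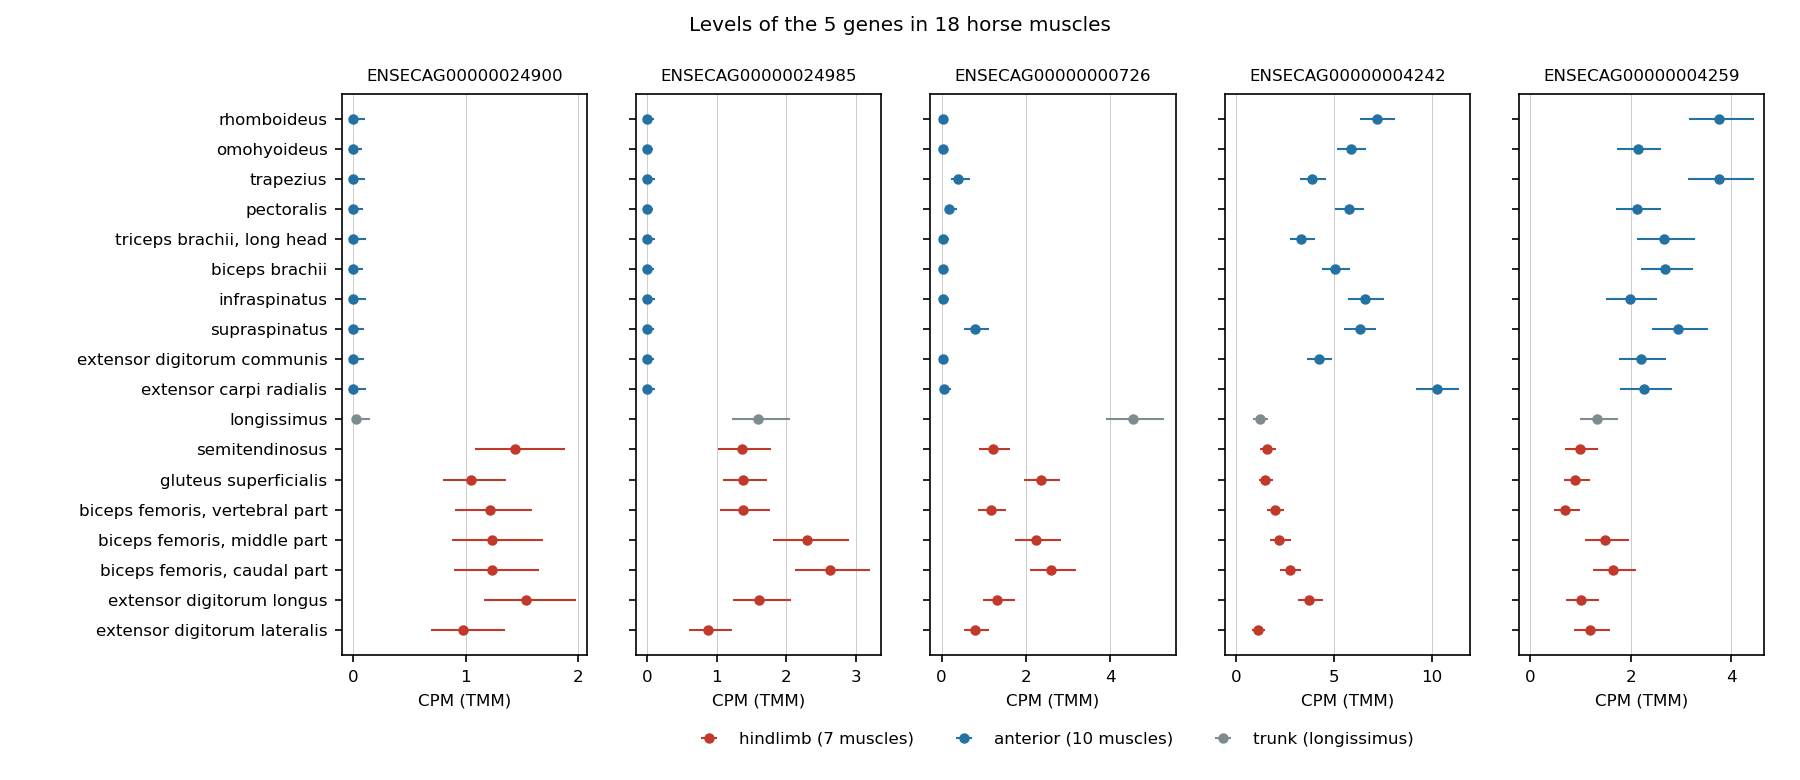
Level of each of the 5 genes (CPM after TMM scaling, x axis, a scale of its own per gene) in each of the 18 muscles (y axis), with bars for the exact 95% Poisson interval of the count. ENSECAG00000024900 and ENSECAG00000024985 have 0 counts in all 10 anterior muscles, ENSECAG00000000726 is highest in the longissimus at 4.55 CPM, and ENSECAG00000004242 reaches 10.2 CPM in the extensor carpi radialis.

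By edgeR's quasi-likelihood test, 5 of 12978 genes tested were called between hindlimb and anterior muscles at an adjusted p below 0.05 and an absolute log2 fold change above 0.58, which is 0.0385% of the genes tested, and these 5 are the genes described here. As this contrast chose them, the count is a description. DESeq2 called 146 genes, among them 2 of the 5 (ENSECAG00000004242 and ENSECAG00000004259), and gave the other 3 no adjusted p. Leaving out 1 muscle in edgeR gave 2 genes (without the gluteus superficialis) to 29 genes (without the caudal biceps femoris). Over the 17 muscles left out, the call was lost in 7 runs for ENSECAG00000004242, in 4 for ENSECAG00000000726, in 1 (without the gluteus superficialis) for ENSECAG00000004259 and in 0 for the other 2 genes. With the 3 parts of the biceps femoris as 1 library, ENSECAG00000000726 and ENSECAG00000004242 were no longer called. At an unadjusted p below 0.05 there were 2035 genes, these 5 included. Over all genes tested the difference of mean log2 CPM had a median of 0.00294, and 95% of the genes lay between -0.592 and 0.586. The 2 anterior genes, at -1.46 and -1.21, were chosen by a fold limit of this size in the same contrast, so nothing is read from their lying beyond that range. Some genes that were not called had larger differences, and ENSECAG00000004242 ranked 13th and ENSECAG00000004259 21st by the size of the difference among all genes higher in anterior muscles.

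Levels that did not overlap between the groups were also counted, again as a description of the contrast that chose the genes. Of the genes tested, 5 were higher in all hindlimb than in all anterior muscles, which is 0.0385%, and 2 of these are ENSECAG00000024900 and ENSECAG00000024985. The other 3 had ratios of the means of only 1.33 to 1.37. In the anterior direction 6 genes did not overlap, which is 0.0462%, and ENSECAG00000004259 was 1 of these, with the third largest gap. The other 5 had ratios of 1.29 to 2.14.

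**Figure D2:**
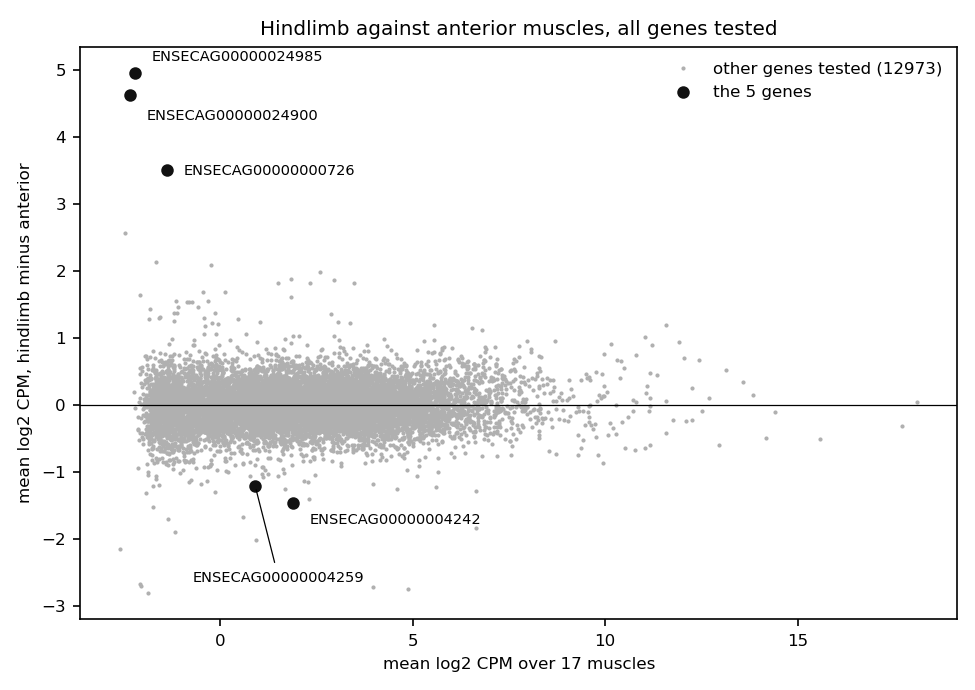
Difference of mean log2 CPM between hindlimb and anterior muscles (y axis) against the mean log2 CPM over these 17 muscles (x axis) for the 12978 genes tested, with the 5 genes as black points. ENSECAG00000000726 lies at 3.50, ENSECAG00000004242 at -1.46 and ENSECAG00000004259 at -1.21, all at a prior count of 2. The positions of ENSECAG00000024900 and ENSECAG00000024985 depend on the prior count, as does that of ENSECAG00000000726, which is 4.13 at a prior count of 0.5.

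The longissimus, which the choice of the genes did not use, took different sides for different genes. The hindlimb and anterior levels that it is set against are those that chose the genes. ENSECAG00000024900 had 1 count in the longissimus (0.0266 CPM, 95% interval 0.000674 to 0.148), which is at the floor, as in the anterior muscles. Its rate was 0.0217 times the pooled hindlimb rate (95% interval 0.000548 to 0.122). ENSECAG00000024985 had 60 counts (1.60 CPM, 1.22 to 2.06), within the range of the hindlimb muscles and 0.993 times their pooled rate (0.746 to 1.30). This level was at least 19.7-fold higher than the anterior floor.

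ENSECAG00000000726 was higher in the longissimus than in any limb muscle, with 171 counts (4.55 CPM, 3.90 to 5.29). Its rate was 2.70 times the pooled hindlimb rate (2.25 to 3.22) and 28 times the pooled anterior rate (20.8 to 38.2). The anterior rate pools 61 counts, of which 30 are from the supraspinatus, so the second ratio would be higher without that library. Its interval covers counting error only. In the back muscle, the 3 genes with higher hindlimb than anterior levels thus had a level at the floor, a level like the hindlimb and a level above it.

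Both genes with higher anterior levels were low in the longissimus. ENSECAG00000004242 had 46 counts (1.22 CPM, 0.896 to 1.63), which is 0.211 times the pooled anterior rate (0.154 to 0.282) and 0.586 times the pooled hindlimb rate (0.424 to 0.792). ENSECAG00000004259 had 50 counts (1.33 CPM, 0.988 to 1.75), which is 0.506 times the anterior rate (0.373 to 0.672), and its ratio of 1.21 to the hindlimb rate had an interval that includes 1 (0.880 to 1.64). With 1 trunk library, these ratios compare libraries and have no replicate check.

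**Figure D3:**
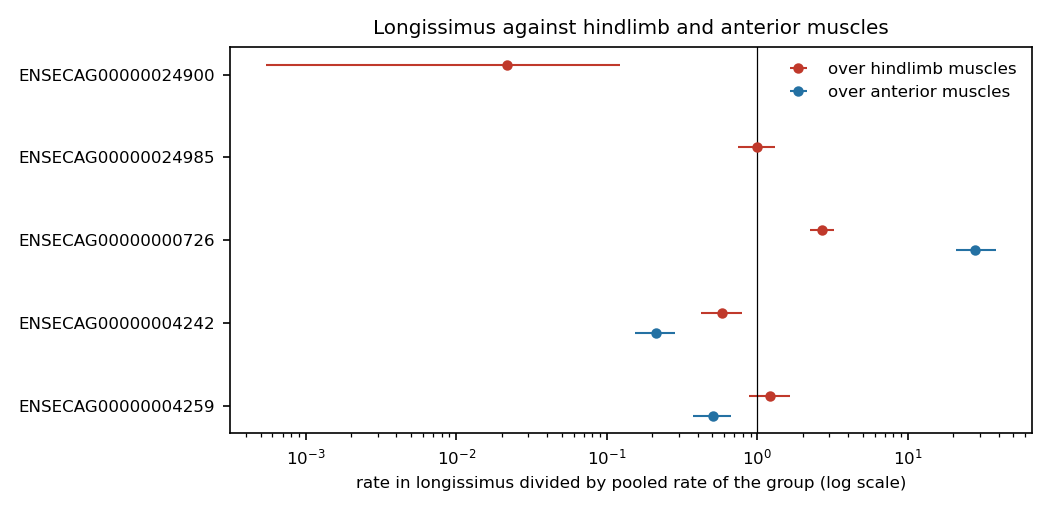
Rate in the longissimus divided by the pooled rate of the 7 hindlimb muscles (red) or the 10 anterior muscles (blue) on a log axis, with 95% counting intervals, for the 5 genes. No anterior ratio exists for ENSECAG00000024900 and ENSECAG00000024985, whose anterior counts are 0, and only ENSECAG00000000726 lies above 1 in both ratios, at 2.70 and 28.

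Whether the levels grade along the limb is a comparison that did not choose the genes directly. The test that chose them weighed the difference between the groups against the spread within each group. It thus favored genes that are even within a limb, so small differences along the limb are partly favored by the choice. Between the 2 distal and the 5 proximal hindlimb muscles, edgeR called 425 of 14770 genes, which is 2.88%, of which 284 were higher and 141 lower in the distal muscles, and none of the 5 genes was among them. The count was 20 without the extensor digitorum lateralis and 821 without the extensor digitorum longus. ENSECAG00000024900 had 1.25 CPM distally and 1.23 proximally, with a log2 fold change of 0.05 ± 0.34 (SE) and an adjusted p = 0.952. Its 95% interval, -0.71 to 0.80, leaves out a log2 fold change of 1 in either direction. The value was -0.32 without the extensor digitorum longus and 0.34 without the extensor digitorum lateralis.

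ENSECAG00000024985 and ENSECAG00000000726 had lower distal means that did not pass the test. For ENSECAG00000024985 the distal mean was 1.24 CPM and the proximal mean 1.81 CPM, with a log2 fold change of -0.52 ± 0.42 (95% interval -1.44 to 0.40, adjusted p = 0.506). For ENSECAG00000000726 the means were 1.06 and 1.92 CPM, with a log2 fold change of -0.84 ± 0.80 (-2.52 to 0.84, adjusted p = 0.573). Without the extensor digitorum lateralis the values were -0.14 and -0.51, and without the extensor digitorum longus -1.03 and -1.26. In both genes the distal and proximal levels overlapped, and the intervals are wide and include both 0 and, for the second gene, a log2 fold change of -2.

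The genes with higher anterior levels showed no called difference within the hindlimb either. ENSECAG00000004242 had 2.43 CPM distally and 2.01 proximally, with a log2 fold change of 0.30 ± 0.41 (-0.58 to 1.17, adjusted p = 0.718). This distal mean joins the highest and the lowest hindlimb muscle, and its direction rests on the extensor digitorum longus, with a log2 fold change of -0.84 without that muscle and 0.93 without the extensor digitorum lateralis. ENSECAG00000004259 had 1.10 and 1.14 CPM, with a log2 fold change of -0.03 ± 0.33 (-0.73 to 0.66, adjusted p = 0.967).

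In the forelimb, 7 of 14770 genes were called between the 2 distal and the 4 proximal muscles, which is 0.0474%, and none of the 5 genes was called. DESeq2 called 205 genes, a fit of only the 2 groups called 0, and leaving out 1 muscle gave 0 (without the supraspinatus) to 38 (without the extensor carpi radialis). ENSECAG00000004242 had 7.23 CPM distally and 5.33 proximally, a log2 fold change of 0.45 ± 0.41 (-0.40 to 1.31, adjusted p = 0.600). It was -0.34 without the extensor carpi radialis. ENSECAG00000004259 had 2.23 and 2.56 CPM (log2 fold change -0.19 ± 0.32, -0.87 to 0.49, adjusted p = 0.795).

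For ENSECAG00000000726 the forelimb contrast rests on 1 library. The distal mean was 0.0422 CPM and the proximal mean 0.220 CPM, of which the supraspinatus supplied nearly all, and the log2 fold change of -2.37 ± 1.44 (-5.40 to 0.66, adjusted p = 0.422) became 0.47 without the supraspinatus. ENSECAG00000024900 and ENSECAG00000024985 were at 0 counts at every level of the forelimb, so no fold is given.

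Between girdle and neck muscles and the proximal forelimb, no difference was detected in the 3 genes that could be compared, since ENSECAG00000024900 and ENSECAG00000024985 were at 0 counts in both groups. Here edgeR called 0 of 14770 genes (0%), with 1343 at an unadjusted p below 0.05, and DESeq2 called 13 genes. ENSECAG00000004242 had 5.67 CPM in girdle and neck muscles and 5.33 in the proximal forelimb (log2 fold change 0.09 ± 0.34, -0.62 to 0.80, adjusted p = 0.945). ENSECAG00000004259 had 2.95 and 2.56 CPM (0.19 ± 0.26, -0.36 to 0.74, adjusted p = 0.832). ENSECAG00000000726 had 0.163 and 0.220 CPM (-0.50 ± 0.88, -2.36 to 1.36, adjusted p = 0.880), a value that became 2.34 without the supraspinatus.

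The difference between distal and proximal muscles was also compared between the limbs as an interaction. No gene was called by edgeR (0 of 14770, 0%), with 369 at an unadjusted p below 0.05 and 0 called by DESeq2. The interaction was -0.16 ± 0.59 (-1.40 to 1.08) for ENSECAG00000004242, 0.16 ± 0.46 (-0.81 to 1.13) for ENSECAG00000004259 and 1.53 ± 1.66 (-1.96 to 5.01) for ENSECAG00000000726, each with an adjusted p = 1. Differences between the limbs that lie within these wide intervals were not detectable with 2 muscles in each distal group.

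Ordered from hip to leg, ENSECAG00000000726 had 2.36 CPM in the gluteus superficialis, a mean of 1.81 in the 4 thigh muscles and 1.06 in the 2 leg muscles. Its Spearman rho with the level along the limb was -0.558 over 7 hindlimb muscles. Over the 10 anterior muscles, of which 7 were at the floor, its rho was -0.404, and -0.455 on deposited totals. ENSECAG00000024985 had 1.38, 1.92 and 1.24 CPM from hip to leg (rho -0.239), and ENSECAG00000024900 had 1.05, 1.28 and 1.25 CPM (rho 0.199). These courses depend on the scaling of the libraries, and the hip level is a single library, whose TMM factor was 1.40. Deposited totals change the scaling of all libraries at once, so the part of the hip library was not tested. On deposited totals, an alternative chosen after seeing the data, the means from hip to leg were 3.29, 1.78 and 0.963 CPM for ENSECAG00000000726 (rho -0.777), 1.93, 1.89 and 1.14 CPM for ENSECAG00000024985 (rho -0.578) and 1.46, 1.28 and 1.14 CPM for ENSECAG00000024900 (rho -0.418). The points share the scaling of their libraries, and the correlations are descriptions.

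The anterior course of ENSECAG00000004242 was not ordered, with means of 5.67 CPM in girdle and neck, 6.45 at the shoulder, 4.20 in the arm and 7.23 in the forearm (rho -0.0505, n = 10 muscles). In the hindlimb its means were 1.51, 2.14 and 2.43 CPM from hip to leg (rho 0.199, n = 7 muscles). ENSECAG00000004259 had anterior means of 2.95, 2.46, 2.67 and 2.23 CPM in the same order (rho -0.126) and hindlimb means of 0.902, 1.20 and 1.10 CPM (rho 0.319). On deposited totals the anterior means of ENSECAG00000004259 were 3.11, 2.29, 2.71 and 2.17 CPM (rho -0.354). On that scale the hindlimb course of ENSECAG00000004259 turned to 1.26, 1.18 and 0.978 CPM (rho -0.339), and that of ENSECAG00000004242 was 2.11, 2.14 and 2.26 CPM (rho 0). At every level that both limbs share, the anterior mean of each of these genes was above the hindlimb mean, as their choice by this contrast favors.

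**Figure D4:**
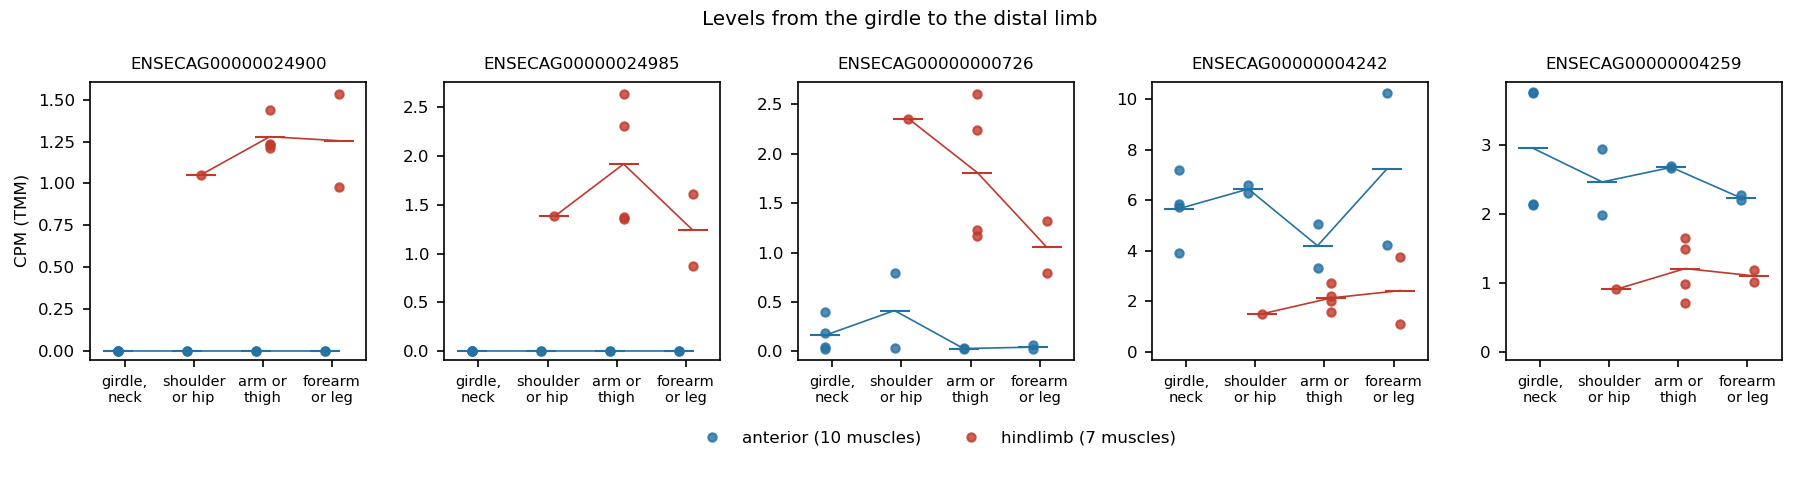
Level of each of the 5 genes (CPM after TMM scaling, y axis) against the place of the muscle from the girdle to the forearm or leg (x axis), with a point per muscle and a dash for the mean of a level. ENSECAG00000000726 has means of 2.36, 1.81 and 1.06 CPM from hip to leg. Among the anterior levels, ENSECAG00000004242 spreads most at the forearm, where single muscles lie at 10.2 and 4.22 CPM. Among the hindlimb levels, ENSECAG00000004242 spreads most at the leg, with muscles at 3.75 and 1.11 CPM.

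Between the long toe extensor of the leg (extensor digitorum longus) and the common digital extensor of the forearm (extensor digitorum communis), the ratio for ENSECAG00000004242 was 0.889 with a 95% counting interval that includes 1 (0.706 to 1.12). On deposited totals, an alternative chosen after seeing the data, it was 0.770 with an interval that leaves out 1 (0.612 to 0.969). For ENSECAG00000004259 it was 0.457 (0.304 to 0.676), and 0.396 on deposited totals (0.263 to 0.585). For ENSECAG00000000726 the ratio was 52.9 (9.07 to 2130), against a single count in the extensor digitorum communis. Each of these ratios compares 1 hindlimb library with 1 anterior library, with intervals that cover counting error only. They restate the contrast that chose the genes and are descriptions.

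Neighboring extensors were compared in the same way. ENSECAG00000004242 was 3.38 times higher in the extensor digitorum longus than in the extensor digitorum lateralis (2.38 to 4.89), and 2.43 times higher in the extensor carpi radialis than in the extensor digitorum communis (2.01 to 2.94), or 1.86 times on deposited totals (1.54 to 2.25). The forearm ratio was 1.03 (0.748 to 1.42) for ENSECAG00000004259 and 2.39 (0.124 to 141) for ENSECAG00000000726, which had 2 counts against 1. The leg ratio was 1.57 (1.02 to 2.43) for ENSECAG00000024900, 1.85 (1.19 to 2.91) for ENSECAG00000024985, 1.67 (1.04 to 2.71) for ENSECAG00000000726 and 0.844 (0.533 to 1.33) for ENSECAG00000004259. The extensor digitorum lateralis was the lowest hindlimb muscle for 4 of the 5 genes, all but ENSECAG00000004259, both on the TMM scale and on that of deposited totals. It is also the library that stands apart, and the part of that in these levels was not tested. The share of all genes that are lowest in this muscle is not given here, so the count of 4 is not read as a trait of the 5 genes.

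Within the biceps femoris, the ratio of the caudal to the vertebral part had a counting interval above 1 for 4 of the 5 genes. On deposited totals this held for 3 genes, since the ratio of ENSECAG00000004242 was then 1.18 (0.876 to 1.59). On the TMM scale the ratio was 2.35 (1.49 to 3.78) for ENSECAG00000004259, 2.23 (1.57 to 3.21) for ENSECAG00000000726, 1.91 (1.37 to 2.69) for ENSECAG00000024985 and 1.37 (1.02 to 1.85) for ENSECAG00000004242. For ENSECAG00000024900 it was 1.02 (0.667 to 1.55). The caudal part was the highest hindlimb muscle for ENSECAG00000024985 and ENSECAG00000004259 on both scales, and for ENSECAG00000000726 on the TMM scale, whereas on deposited totals the gluteus superficialis was higher at 3.29 CPM against 2.60 CPM. These ratios compare single libraries of 1 muscle, and their intervals cover counting error only. The share of all genes with an interval above 1 is not given here, so the counts of genes are not read as a trait of the 5 genes.

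With the muscles sorted by level, the counting intervals of neighbors were compared to locate breaks. Sorting places the closest levels side by side, and muscles with 0 counts stand together, so overlap is not read as likeness. A break between the hindlimb muscles and muscles at or near 0 counts restates the contrast that chose the genes and is a description. For ENSECAG00000004259 the 95% intervals overlapped in all 17 pairs of neighbors. For ENSECAG00000024900, 16 of 17 pairs overlapped, and the break lay between the extensor digitorum lateralis and the longissimus. ENSECAG00000024985 likewise broke once, between the extensor digitorum lateralis and the muscles with 0 counts, and ENSECAG00000004242 broke once, below the extensor carpi radialis. ENSECAG00000000726 broke below the longissimus and again between the middle biceps femoris and the extensor digitorum longus.

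Apart from ENSECAG00000024900, the variance over the whole hindlimb group was several times that of counting alone. So was that over the whole anterior group for the genes with counts there. These are different muscles, so no conclusion is drawn from an excess over counting error. The variance between hindlimb muscles was 8.45 times that of counting for ENSECAG00000024985, 11.8 times for ENSECAG00000000726, 14.7 times for ENSECAG00000004242 and 3.89 times for ENSECAG00000004259. Among the anterior muscles it was 23.1 times for ENSECAG00000004242 and 5.99 times for ENSECAG00000004259. For ENSECAG00000000726 it was 14.6 times there, with 7 of 10 libraries at the floor.

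Among the 7 hindlimb muscles, ENSECAG00000024985 and ENSECAG00000000726 had a Pearson r of 0.798 and a Spearman rho of 0.857. Of the 6 pairs of a hindlimb gene with an anterior gene, 3 had r 0.751 and rho 0.536 for ENSECAG00000024985 and ENSECAG00000004259, r 0.719 and rho 0.786 for ENSECAG00000024900 and ENSECAG00000004242, and r 0.535 and rho 0.786 for ENSECAG00000024985 and ENSECAG00000004242. The other 3 had r 0.564 and rho 0.393 (ENSECAG00000000726 and ENSECAG00000004259), r 0.217 and rho 0.464 (ENSECAG00000000726 and ENSECAG00000004242), and r -0.0814 and rho 0.179 (ENSECAG00000024900 and ENSECAG00000004259). ENSECAG00000024900 had r 0.253 and rho 0.429 with ENSECAG00000024985, and r -0.106 and rho 0.286 with ENSECAG00000000726. The 2 anterior genes had r -0.171 and rho -0.0788 over the 10 anterior muscles, and r 0.196 and rho 0.357 over the 7 hindlimb muscles. These values share libraries and scaling and are given without a test.

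Over all 18 muscles the genes most like each other in log2 CPM were ENSECAG00000024900 and ENSECAG00000024985, with a Pearson r of 0.911, the only gene above 0.9 for either. ENSECAG00000000726 was the next most like ENSECAG00000024985, with r 0.888. Outside the 5 genes, the gene most like ENSECAG00000004242 was ENSECAG00000008394 (r 0.844), with mean levels of 21.6 CPM in anterior muscles, 17.5 CPM in the hindlimb and 14.9 CPM in the longissimus. The gene most like ENSECAG00000004259 was ENSECAG00000022738 (r 0.873), with 3.95, 1.96 and 2.64 CPM in the same order. The correlations over 18 muscles contain the contrast that chose the genes.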

How the data were processed

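RNA of 18 muscles of 1 Jeju horse was sequenced, with paired reads of 101 bp and 1 library per muscle. Per the study's methods, ribosomal RNA was depleted, reads were trimmed with NGSQCToolkit and aligned to EquCab2 with STAR (2.5.2b in the submitters' processing notes) in 2 passes. The authors deposited raw counts of reads per Ensembl gene as whole numbers, without normalization. The read counts came from the alignment step per the study's methods, and their strand setting is not given in the sources used here, so overlapping and antisense genes cannot be told apart. No reads were reprocessed. Totals on genes were 31395013 to 50508515 per library. The reads carry no molecular identifiers and may include PCR copies, so intervals and floors cover counting error only.

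The 5 genes and the lists were chosen with earlier results of these data known. Genes were kept by filterByExpr (12978 for hindlimb against anterior, 14770 for the segments, all 5 genes in both, a filter that a gene can pass through its high group alone), scaled by TMM and tested by edgeR 4.0.16 (glmQLFit and glmQLFTest, R 4.3.3) with Benjamini-Hochberg adjustment over all genes tested. Hindlimb against anterior used 17 muscles, and contrasts of segments used all 18 in 6 groups with 1 estimate of the spread. Genes were called at adjusted p below 0.05, with log2 fold changes beyond 0.58 in size (hindlimb against anterior) or beyond 1 (segments), and without a fold limit for the interaction. Log2 CPM used a prior count of 2. Intervals of single muscles are exact Poisson at 95%, and ratios of libraries use exact binomial intervals. Alternatives were DESeq2 1.42.0, its size factors, no filter, the biceps femoris parts as 1 library, only the groups compared, a prior count of 0.5, deposited totals in place of TMM and leaving out each muscle.

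Named genes were the 5 genes and, for each, the genes with the highest Pearson r of log2 CPM over the 18 muscles, of which 1 per anterior gene is given. Of the table's identifiers, 0 matched the 39335 genes of the reference table, so the lists of limb position genes and of cell type markers, coordinates and sequences were not used here. The label of the pectoralis (pectoralis major) differs from the name in a figure of the study (pectoralis ascendens). Figures used Python 3.11.15 with matplotlib 3.10.9.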

Additional observations from a re-analysis of the deposited data

Results flagged for a closer look

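ENSECAG00000000726 in the supraspinatus, at 0.795 CPM, lay far above the other proximal forelimb muscles and above the other anterior muscles, with gaps to the next muscle of 0.991 and 0.515 of the range of the group. Such gaps were looked for in 19 sets of muscles, of which chance flags about 1 in 20. The longissimus, which was in neither the hindlimb nor the anterior group, had levels above the floor of 3 counts for 2 genes. Both were at or near the floor in most anterior muscles, and the longissimus had 1.60 CPM for ENSECAG00000024985 and 4.55 CPM for ENSECAG00000000726. No explanation of these values was tested.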

How the results depend on the processing

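Between hindlimb and anterior muscles, 5 genes were called, and 146 with DESeq2 (86 higher and 60 lower in the hindlimb), of which 2 are ENSECAG00000004242 and ENSECAG00000004259. DESeq2 gave no adjusted p for the other 3 of the 5 genes, as for 3774 genes in all. Leaving out each muscle gave 2 (without the gluteus superficialis) to 29 genes (without the caudal biceps femoris), and the call was lost in 7 of 17 runs for ENSECAG00000004242 (without the rhomboideus, omohyoideus, semitendinosus, gluteus superficialis, vertebral or middle biceps femoris or extensor digitorum lateralis), in 4 for ENSECAG00000000726 (without the rhomboideus, omohyoideus, gluteus superficialis or middle biceps femoris), in 1 for ENSECAG00000004259 and in 0 for ENSECAG00000024900 and ENSECAG00000024985. With the biceps femoris parts as 1 library, ENSECAG00000024900, ENSECAG00000024985 and ENSECAG00000004259 were called. In the distal hindlimb the count of 425 became 20 without the extensor digitorum lateralis and 821 without the extensor digitorum longus. In the distal forelimb the count of 7 became 205 with DESeq2, 1 with the biceps femoris merged, 0 with only the 2 groups and 0 to 38 (without the extensor carpi radialis) when muscles were left out. For girdle and neck the count of 0 became 13 with DESeq2, 1 with only the 2 groups and 0 to 3 (without the pectoralis) when muscles were left out, and for the interaction 0 to 1 (without the extensor carpi radialis). None of the 5 genes passed the test in the hindlimb segments under the alternatives run, nor did the 3 genes that could be tested in the anterior segments, but directions turned. With the biceps femoris merged, the distal hindlimb log2 fold change of ENSECAG00000004259 was 0.094. Over the muscles left out, the distal hindlimb value ran from -0.32 to 0.34 for ENSECAG00000024900, -0.84 to 0.93 for ENSECAG00000004242 and -0.17 to 0.14 for ENSECAG00000004259. The distal forelimb value ran from -3.03 to 0.47 for ENSECAG00000000726 and -0.34 to 0.95 for ENSECAG00000004242. The girdle and neck value ran from -1.33 to 2.34 for ENSECAG00000000726 and -0.076 to 0.23 for ENSECAG00000004242. The interaction ran from -1.31 to 2.19 for ENSECAG00000000726 and -1.29 to 0.64 for ENSECAG00000004242. On deposited totals, chosen after seeing the data, the hindlimb rho with the place along the limb was -0.418 for ENSECAG00000024900, 0 for ENSECAG00000004242 and -0.339 for ENSECAG00000004259. With the longissimus counted as anterior, the lower bound of the fold of ENSECAG00000024985 fell to 7.53. It remains a lower bound, since the libraries with 0 counts are set at the floor. The cause of these changes was not tested. Low counts (0 to 344 per library for the 5 genes) and 2 muscles in each distal group limit what the segments can show.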
